A study of Mus musculus with 8 samples.

Results

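The forkhead factors Foxo1, Foxo3 and Foxo4 and the ubiquitin ligase genes Fbxo32, Trim63, Mul1 and Nedd4 were examined for chromatin accessibility in mouse calf muscle with and without an induced knockout of the clock gene Bmal1. Every accessible region that the deposited table annotates to one of these gene names was taken, together with the ligase gene Fbxo30, for which the table lists no region under that name. This gave 343 of 489637 regions, 170 at the FOXO genes and 173 at the ligase genes. Foxo1 held 89 regions, Foxo3 76, Nedd4 73, Fbxo32 65, Trim63 31, Foxo4 5 and Mul1 4. Of the 343 regions, 145 had enough reads to be tested and 198 did not, and none of the untested regions had a mean signal above 13.3.

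The assay was ATAC-seq: a transposase cuts DNA where chromatin is open and leaves sequencing adapters there. It was applied to nuclei purified from gastrocnemius, a calf muscle. All 8 libraries came from mice 6 months old and of the genotype Cre+:iMSBmal1 fl/fl, so that the controls carried the Cre transgene and the floxed Bmal1 alleles too. The 4 Vehicle libraries came from mice given vehicle and the 4 iMSBmal1KO libraries from mice given tamoxifen, the drug that activates the inducible recombinase. Knockout and tamoxifen cannot be told apart in this design. The labels name neither the promoter that drives Cre nor the time of day at which muscle was taken. The series title places the loss of Bmal1 in skeletal muscle, while whole muscles were homogenised, so nuclei of other cells were present too. Fewer nuclei of a type and lower accessibility per nucleus cannot be told apart.

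Atrophy of skeletal muscle depends on the ubiquitin-proteasome system, in which an E3 ligase selects the protein to be degraded. FOXO transcription factors are held in the cytoplasm when insulin and growth factor signalling through AKT phosphorylates them. When that signalling is low they enter the nucleus and bind forkhead elements at genes for ligases and for autophagy. Fbxo32 encodes atrogin-1 (MAFbx), the F-box subunit of an SCF ligase, and Trim63 encodes MuRF1, a RING-finger ligase of the sarcomere. Both are the standard transcript markers of muscle atrophy. Fbxo30 encodes MUSA1, another F-box protein, Mul1 a ligase of the outer mitochondrial membrane, and Nedd4 a HECT-domain ligase that acts on membrane proteins.

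Sequence around the starts of 3 ligase genes is shown because these promoters carried the motif matches and the clearest promoter difference described further on. Each stretch covers 250 bases before to 50 bases after a RefSeq gene start in the assembly GRCm38.p6, on the plus strand. Capitals mark matches, on either strand, to the forkhead element GTAAACA, the E-box CACGTG, the monomer site AGGTCA bound by nuclear receptors of the ROR and REV-ERB families, or the glucocorticoid receptor half-site AGAACA.
Trim63, chr4:134314870-134315169: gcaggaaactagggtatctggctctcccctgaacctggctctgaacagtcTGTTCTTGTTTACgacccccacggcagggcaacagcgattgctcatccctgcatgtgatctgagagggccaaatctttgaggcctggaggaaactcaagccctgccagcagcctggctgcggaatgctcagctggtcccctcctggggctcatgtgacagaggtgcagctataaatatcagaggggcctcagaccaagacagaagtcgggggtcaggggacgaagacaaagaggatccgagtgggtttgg
Mul1, chr4:138434422-138434721: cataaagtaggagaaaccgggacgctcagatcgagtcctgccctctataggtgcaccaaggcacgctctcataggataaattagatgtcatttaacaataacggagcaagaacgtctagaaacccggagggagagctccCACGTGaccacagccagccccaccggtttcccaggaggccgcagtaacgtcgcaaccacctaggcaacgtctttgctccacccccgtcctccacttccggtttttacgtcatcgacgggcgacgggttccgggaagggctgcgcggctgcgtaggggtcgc
Nedd4, chr9:72662081-72662380: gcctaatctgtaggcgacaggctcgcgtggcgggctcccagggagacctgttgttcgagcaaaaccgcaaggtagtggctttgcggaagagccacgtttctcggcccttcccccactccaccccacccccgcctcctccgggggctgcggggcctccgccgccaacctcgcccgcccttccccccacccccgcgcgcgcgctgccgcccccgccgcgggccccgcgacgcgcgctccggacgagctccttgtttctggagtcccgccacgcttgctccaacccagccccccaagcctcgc

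In the Trim63 promoter a forkhead element and a glucocorticoid half-site lay side by side on the minus strand, their first bases 194 and 200 bases before the start. Neither lay in an accessible region: the nearest one began 33 and 40 bp downstream of them. The Mul1 promoter held 1 E-box, 111 bases before the start, and this E-box lay inside the accessible region of that promoter. The Nedd4 promoter shown held none of the 4 motifs, and all its 300 bases lay in accessible regions, as did the promoters of Foxo1 and Foxo3, also without a match. Neither did the Fbxo30 promoter hold a match. A second Nedd4 promoter, chr9:72693048-72693347, had a glucocorticoid half-site 216 bases before its start and outside any region. Across all 32851 promoters of the same length, 3.65% held the forkhead element, 7.15% the E-box, 16.3% the monomer site, and 6233 promoters the glucocorticoid half-site. The motifs do not overlap each other in the stretches shown. The table of RefSeq promoter sequences had entries for 6 of the 8 genes, and not for Foxo4 and Fbxo32.

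Values below are the deposited signal, which behaved as reads divided by a constant for each library, and log2 changes are iMSBmal1KO minus Vehicle on the log2(signal + 1) scale. The libraries held 4.31 to 29.5 M read equivalents (M, 1000000 reads) in regions. Vehicle 4 was the shallowest, had 16.5% of its reads on the mitochondrial genome against 1.11% to 5.51% in the others, and correlated with them at 0.803 to 0.847 against 0.896 to 0.941 among the other 7. The median log2 change of all 124912 tested regions was 0.12, and 0.04 without Vehicle 4. Abundance-dependent loess scaling brought this median to 0.01. Bmal1 itself, listed as Arntl, had a summed signal of 2359 ± 334 (SD, n = 4) in Vehicle and 3228 ± 176 in iMSBmal1KO, a log2 change of 0.46 with an adjusted p of 0.372 by limma-trend. Every knockout library was above every Vehicle library, and the exact two-sided permutation test over 70 arrangements gave p = 0.0286. That is the smallest p this test can give, and any gene without overlap gets it. The share of all genes without overlap in summed signal was not counted. At the Arntl promoter the log2 change was 0.14 and the groups overlapped. Signal summed over a gene does not show whether its floxed exon was removed.

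None of the 145 tested regions of the 7 genes passed an adjusted p of 0.05, where 0.0881% of all tested regions did. The smallest adjusted p among them was 0.472. An unadjusted p below 0.05 was reached by 7 regions, 3 higher and 4 lower in the knockout, which is 4.83% of those tested against 9.22% of all regions. Groups without overlap occurred in 3 regions, 2 higher and 1 lower, which is 2.07% against 5.49% of all regions. The median log2 change was 0.03, and 75 of the 145 regions were above 0 but only 58 above the median of all regions. The median region had a standard error of 0.35, so that its 95% interval reached 0.74 to either side on the log2 scale. Moderate changes of single regions were therefore not detectable here.

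**Figure D1:**
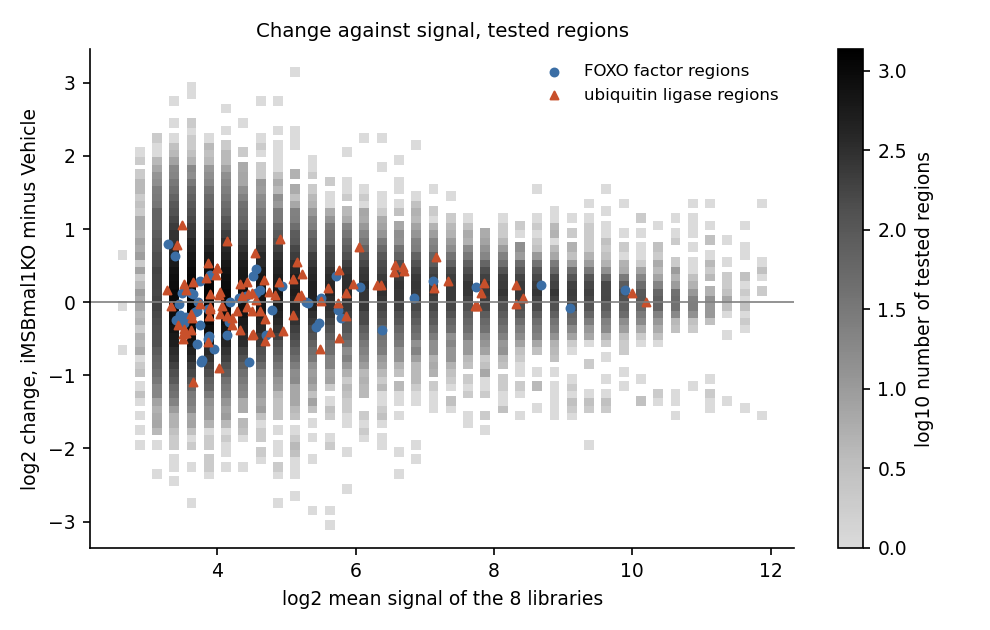
Log2 change (iMSBmal1KO minus Vehicle, vertical axis) against the log2 mean signal of the 8 libraries (horizontal axis) for the 145 tested regions of the FOXO genes (circles) and ligase genes (triangles), over the density of all 124912 tested regions (grey, log10 number of regions). The coloured points lie within the grey cloud, between -1.10 and 1.05.

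Signal per kb over all regions of a gene, weak and untested ones included, set the genes apart by level. By this average Fbxo32 was highest, with 409 ± 78.9 signal per kb (SD over all 8 libraries). Trim63 followed with 323 ± 63.2, Mul1 with 312 ± 34.8, Nedd4 with 271 ± 35.5 and Foxo3 with 259 ± 38.8. Foxo4 had 160 ± 34.4 and Foxo1 84.7 ± 11.8. The order of Trim63 and Mul1 held in only 4 of 8 libraries and that of Nedd4 and Foxo3 in 5, so these neighbours did not differ beyond their spread. Fbxo32 exceeded Trim63 in 7 libraries and Mul1 exceeded Nedd4 in 7, in each case with overlapping spreads. Foxo3 exceeded Foxo4, and Foxo4 exceeded Foxo1, in all 8. The order was another for the region with the most signal in each gene. That region had 1677 per kb at Foxo3, 1248 at Fbxo32, 1153 at Nedd4, 899 at Trim63, 849 at Foxo1, 434 at Mul1 and 340 at Foxo4. The 7 genes also differed in where their signal lay: regions within 1000 bp of an annotated start held 100% of it at Foxo4 and Mul1, 58.3% at Trim63, 49.3% at Foxo3, 35.1% at Fbxo32, 30.9% at Foxo1 and 26.4% at Nedd4.

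**Figure D2:**
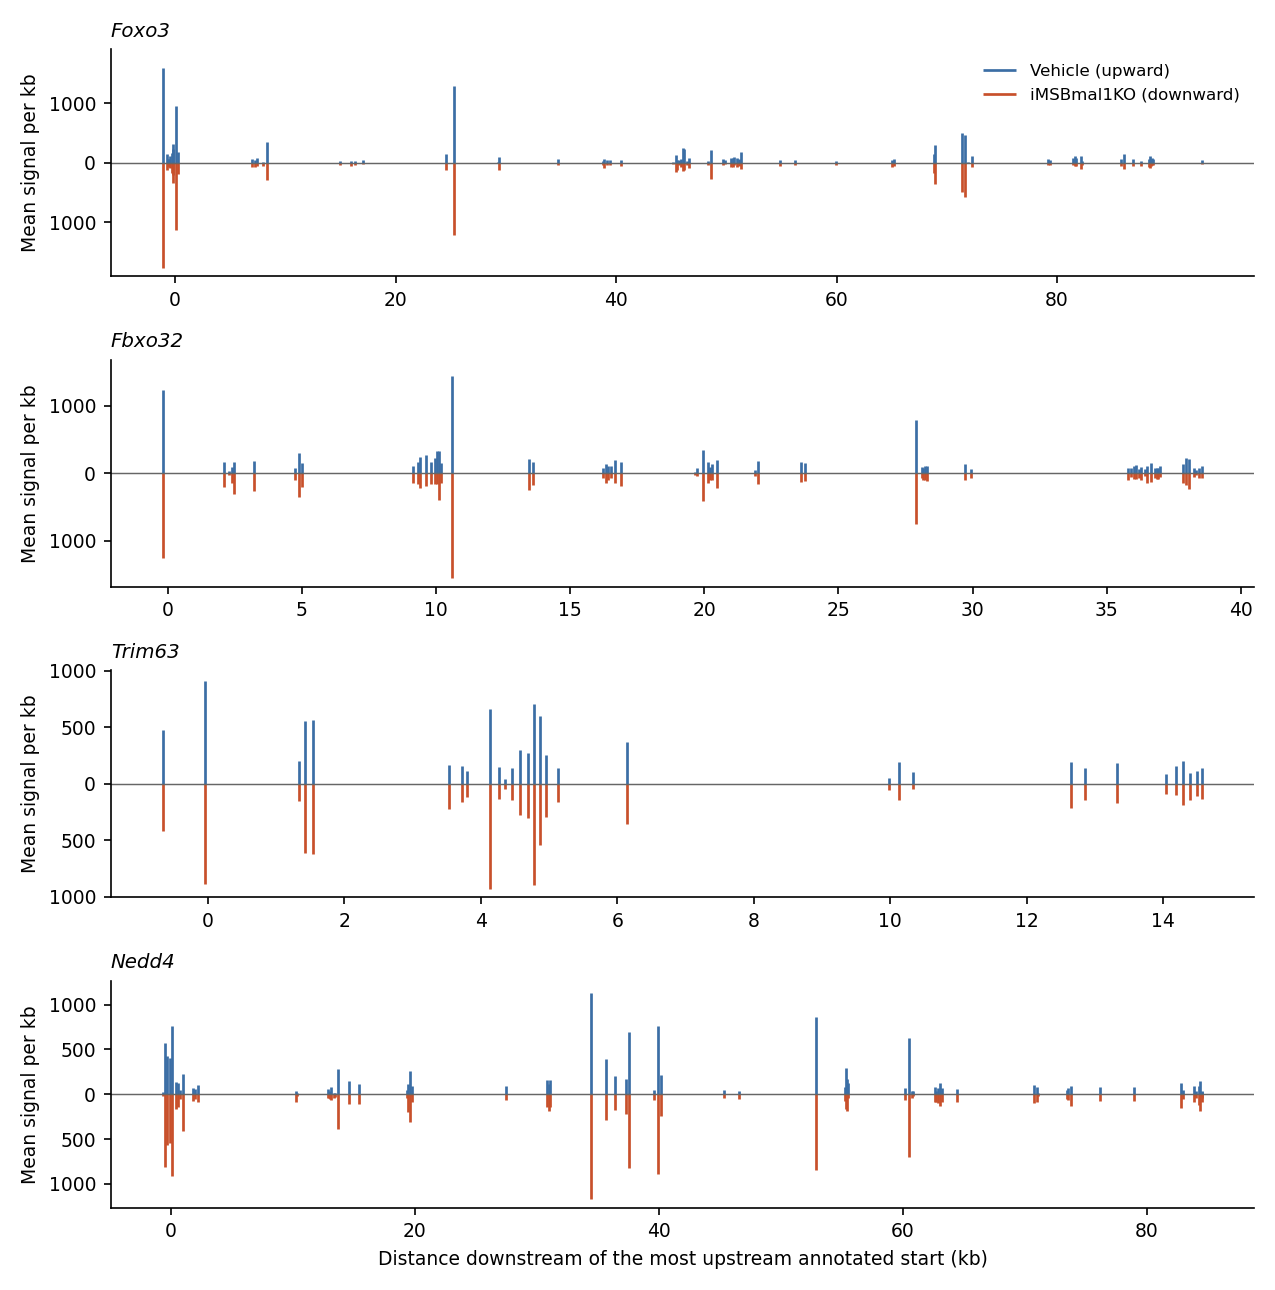
Mean signal per kb of each region of Foxo3, Fbxo32, Trim63 and Nedd4 (vertical axis, Vehicle upward and iMSBmal1KO downward, n = 4 each) against distance in kb downstream of the most upstream annotated start (horizontal axis). Each gene has strong regions at its start and inside the gene. At Fbxo32 they are of similar height upward and downward, with 1248 at the promoter and 1504 in intron 4 over all libraries. The Trim63 region starting at 134319159 has 663 upward and 931 downward.

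Foxo1 encodes a factor whose own transcript is induced in muscle by fasting. Summed over all its regions, its signal in Vehicle libraries 1 to 4 was 875, 1156, 1169 and 954, and in iMSBmal1KO libraries 1 to 4 it was 949, 1086, 1156 and 804, and the same order of libraries is kept below. The groups overlapped almost fully. The log2 change was -0.06, with a 95% interval of -0.39 to 0.27 and an adjusted p of 0.909 by limma-trend over all genes. The promoter region of Foxo1 with the most signal, chr3:52268252-52268505 over the start, had 200 ± 37.0 in Vehicle and 229 ± 33.8 in iMSBmal1KO (SD, n = 4). Among its 19 tested regions the one with the smallest p lay in intron 1, at chr3:52322613-52322769. It had 16.1 ± 4.15 against 11.1 ± 6.68, and iMSBmal1KO 4 had 1.25 there against 12.4 to 15.5 in the other 3. The adjusted p was 0.623. Of the 19 regions 6 were above 0, with a median of -0.10.

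Foxo3, the factor best known for driving ligase and autophagy genes in muscle, had summed signals of 2994, 3331, 2953 and 2295 in Vehicle and 2501, 3680, 2970 and 2748 in iMSBmal1KO. Each group held libraries above and below those of the other. Its log2 change was 0.04, with an interval of -0.28 to 0.35 and an adjusted p of 0.942. The strongest Foxo3 region, chr10:42277608-42278175, lay 911 bp before an annotated start and had 1677 signal per kb, a density above that of 99.3% of all tested regions and of 98.2% of those at starts. It had 1016, 1096, 754 and 732 in Vehicle and 916, 1135, 911 and 1045 in iMSBmal1KO. These ranges overlapped, with an adjusted p of 0.759. A further strong region, chr10:42251233-42251674, lay inside the gene, 6693 bp from the nearest annotated start, with 568 ± 123 in Vehicle and 534 ± 121 in iMSBmal1KO and 1249 signal per kb.

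A weak region at chr10:42230635-42230745, labelled as a 5′ UTR exon, had the smallest p at Foxo3. It had 30.9, 31.9, 18.4 and 31.3 in Vehicle and 11.1, 13.4, 16.7 and 21.3 in iMSBmal1KO. Vehicle 3 lay within the knockout range, below the other 3 Vehicle libraries. The log2 change was -0.81 ± 0.32 (SE), with an unadjusted p of 0.0189 and an adjusted p of 0.498 by limma-trend. The region abutting it, chr10:42230557-42230635, chosen after values were seen, had 17.5 ± 4.94 against 9.86 ± 3.73 (SD, n = 4). Each of the pair held 5 to 34 reads in a library, and abutting regions are not separate evidence. The label of 5′ UTR exon covers 39 Foxo3 regions spread over 72.1 kb of the gene but holding only 5.83 kb of sequence.

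Foxo4 lies on the X chromosome and had the fewest reads of the 3 factors. Its summed signal, all of it at the promoter, was 99.1, 127, 105 and 71.9 in Vehicle and 137, 128, 82.3 and 123 in iMSBmal1KO. This was a log2 change of 0.22, with an interval of -0.22 to 0.66 and an adjusted p of 0.704, and it was 0.068 without Vehicle 4 and 0.38 without iMSBmal1KO 3. Most of it came from chrX:101254069-101254265, 302 bp before the start, with 61.7 ± 11.8 and 71.6 ± 14.7 (SD, n = 4). The 3 tested Foxo4 regions were all above the median change of all regions, at 0.21 to 0.45. All tested start regions had a higher median, 0.17. None of the 3 had an unadjusted p under 0.05 by limma-trend.

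**Figure D3:**
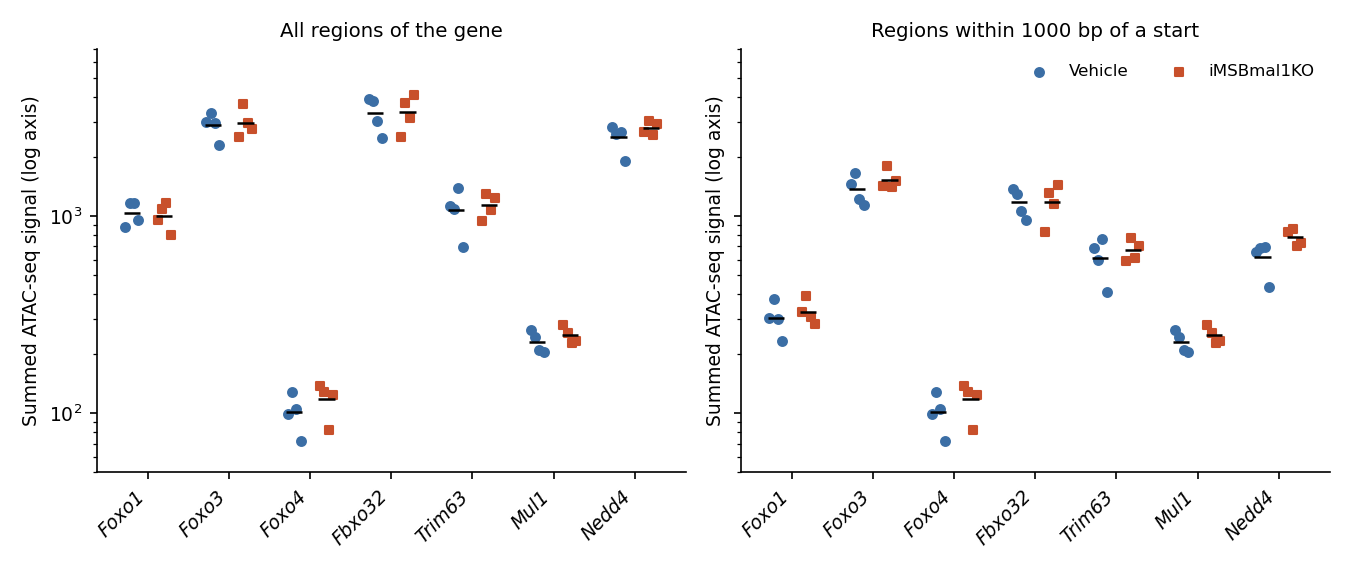
Summed signal (vertical log axis) of each gene over all its regions (left) and over regions within 1000 bp of an annotated start (right), with 1 point per library, 4 Vehicle (circles) and 4 iMSBmal1KO (squares), and lines at the group means. Only for the promoter signal of Nedd4 do the groups not overlap, 438 to 695 against 701 to 858.

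Fbxo32 had summed signals of 3923, 3846, 3029 and 2476 in Vehicle and 2504, 3737, 3154 and 4112 in iMSBmal1KO. The highest and the lowest library of each group lay far apart, and the group means, 3318 ± 692 and 3377 ± 703, nearly coincided. Over all regions the log2 change was 0.03, with an interval of -0.33 to 0.38 and an adjusted p of 0.968. A single promoter region, chr15:58214650-58215592, held 35.1% of the gene's signal at 1248 signal per kb, above 98.1% of all tested regions. Its signal was 1372, 1298, 1058 and 957 in Vehicle and 831, 1308, 1151 and 1433 in iMSBmal1KO. Here a knockout library was both the lowest and the highest, and the log2 change was -0.0019 with an adjusted p of 0.997 in the fit of promoter sums.

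Inside Fbxo32, a region in intron 4 at chr15:58204005-58204683, 10250 bp from the start, was denser than the promoter at 1504 signal per kb, above 99.0% of all tested regions. It had 1318, 1018, 900 and 688 in Vehicle and 816, 1143, 1021 and 1254 in iMSBmal1KO. Relative to the promoter region it stood at 0.829 ± 0.103 among Vehicle and 0.905 ± 0.0516 among iMSBmal1KO libraries (SD, n = 4), and these ratios overlapped, at 0.719 to 0.960 and 0.874 to 0.981. The ratio of the second strongest to the strongest region was taken for all 7 genes, without a test. It overlapped between the groups in 6 of them, with Trim63 at 0.542 ± 0.197 and 0.820 ± 0.125. For Trim63 the ratio was 0.263 in Vehicle 4 and 0.549 to 0.706 in the other Vehicle libraries. In Foxo1, where both regions lie at the start, it was 0.289, 0.325, 0.277 and 0.286 in Vehicle and 0.168, 0.249, 0.226 and 0.242 in iMSBmal1KO. Ratios without overlap occurred in 5.91% of all genes whose 2 strongest regions were tested. A 51 bp region in the same intron, chr15:58204873-58204924, had the smallest p of the gene. It had 17.0 ± 3.74 in Vehicle and 8.10 ± 4.48 in iMSBmal1KO (SD, n = 4), a log2 change of -1.10 ± 0.42 (SE), unadjusted p of 0.0155 and adjusted p of 0.486 by limma-trend. It held 5 to 21 reads in a library. Every Vehicle library had enough reads there for testing, but among the knockout libraries iMSBmal1KO 4 alone did. Merged with the regions it abuts, this 51 bp region had a log2 change of only -0.19, with an adjusted p of 0.831 by limma-trend. A region in intron 1, chr15:58212413-58212487, chosen after values were seen, pointed the other way, with 12.1 ± 3.32 and 23.3 ± 10.6 (SD, n = 4), and iMSBmal1KO 4 alone had 38.9 there. Of the 35 tested Fbxo32 regions 18 were above 0, with a median of 0.02.

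Trim63 had summed signals of 1118, 1078, 1377 and 694 in Vehicle and 942, 1299, 1077 and 1232 in iMSBmal1KO. Vehicle held both extremes, and Vehicle 4 was the low one. For Trim63 the log2 change was 0.12, with an interval of -0.26 to 0.51 and an adjusted p of 0.816. At the start of the transcript Trim63-203, next to the motifs shown above, the strongest region, chr4:134314965-134315200, had 215 ± 25.8 in Vehicle and 208 ± 38.4 in iMSBmal1KO (SD, n = 4). Both regions at this start together had 276 ± 32.0 and 262 ± 42.4.

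A second annotated start within Trim63, that of Trim63-204, held 10 regions with 426, 307, 447 and 169 in Vehicle and 370, 459, 372 and 434 in iMSBmal1KO. Vehicle 4 was again far below the rest, and the groups overlapped. The smallest p of the gene was at chr4:134319159-134319339, 649 bp before this start, with 151, 151, 128 and 46.9 in Vehicle and 146, 172, 169 and 183 in iMSBmal1KO. The log2 change there was 0.62 ± 0.31 (SE), with an adjusted p of 0.551, and it was 0.22 without Vehicle 4. That library held 15 reads in this region.

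Mul1 had 263, 245, 208 and 203 in Vehicle and 280, 254, 227 and 231 in iMSBmal1KO, all at its promoter. The knockout libraries lay within or just above the Vehicle range. Its log2 change was 0.11, with an interval of -0.22 to 0.45 and an adjusted p of 0.809, and it equalled the median of all genes, 0.11. The region that holds the E-box shown above, chr4:138434539-138435055, carried 93.8% of the signal, with 214 ± 29.9 and 234 ± 19.7 (SD, n = 4).

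Nedd4 showed the largest promoter difference of the 7 genes, though it did not pass the test. Its summed signal over all regions was 2840, 2601, 2667 and 1892 in Vehicle and 2678, 3030, 2577 and 2930 in iMSBmal1KO, a log2 change of 0.18 with an interval of -0.12 to 0.48 and an adjusted p of 0.658. At the promoter Nedd4 had 656, 686, 695 and 438 in Vehicle and 832, 858, 701 and 725 in iMSBmal1KO. Every knockout library was above every Vehicle library, although the lowest of the former, 701, nearly met the highest of the latter, 695. The means were 619 ± 122 and 779 ± 77.4 (SD, n = 4), and the log2 change was 0.35, with an interval of -0.02 to 0.72 and an adjusted p of 0.507 by limma-trend. The exact two-sided permutation test over the 70 arrangements of the libraries gave p = 0.0286, the smallest it can give. Knockout above vehicle without overlap was found at 3.48% of all genes with promoter signal, where 1 of these 7 genes had it. Vehicle 4 was the low library, and without it the log2 change was 0.19. With loess scaling of all 8 libraries the change was 0.20.

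Most of the Nedd4 promoter signal lay at the upstream end of the gene, around the start of Nedd4-208, where the promoter shown above lies. The 9 regions there together had 534, 575, 561 and 350 in Vehicle and 695, 736, 580 and 591 in iMSBmal1KO. At the other 4 annotated starts of the gene the Vehicle means were 15.2 to 38.1 and the knockout means 14.4 to 47.2. The smallest p of any member region, 0.0126 with an adjusted p of 0.472 by limma-trend, was at chr9:72663335-72663429, 845 bp past that start and labelled TTS, the section at transcript ends. It had 21.2 ± 6.68 in Vehicle and 38.8 ± 9.79 in iMSBmal1KO (SD, n = 4), a log2 change of 0.86 ± 0.31 (SE), and the groups overlapped between 25.0 and 28.8.

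Away from the start, the strongest Nedd4 region lay in intron 1 at chr9:72696624-72696921, with 337 ± 57.2 and 348 ± 42.2 (SD, n = 4) and 1153 signal per kb. The 3 member regions whose groups did not overlap all belonged to Nedd4, and they were chosen after values were seen. They were chr9:72661954-72662163 at the upstream start, with 88.7 ± 10.7 and 119 ± 13.0, chr9:72693264-72693423 at the second start, with 17.8 ± 3.08 and 29.1 ± 6.13, and, lower in the knockout, chr9:72717648-72717719 in intron 1, with 21.0 ± 3.56 and 11.5 ± 4.95. Their adjusted p-values were 0.556, 0.525 and 0.499. Of the 34 tested Nedd4 regions 20 were above the median change of all regions.

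**Figure D4:**
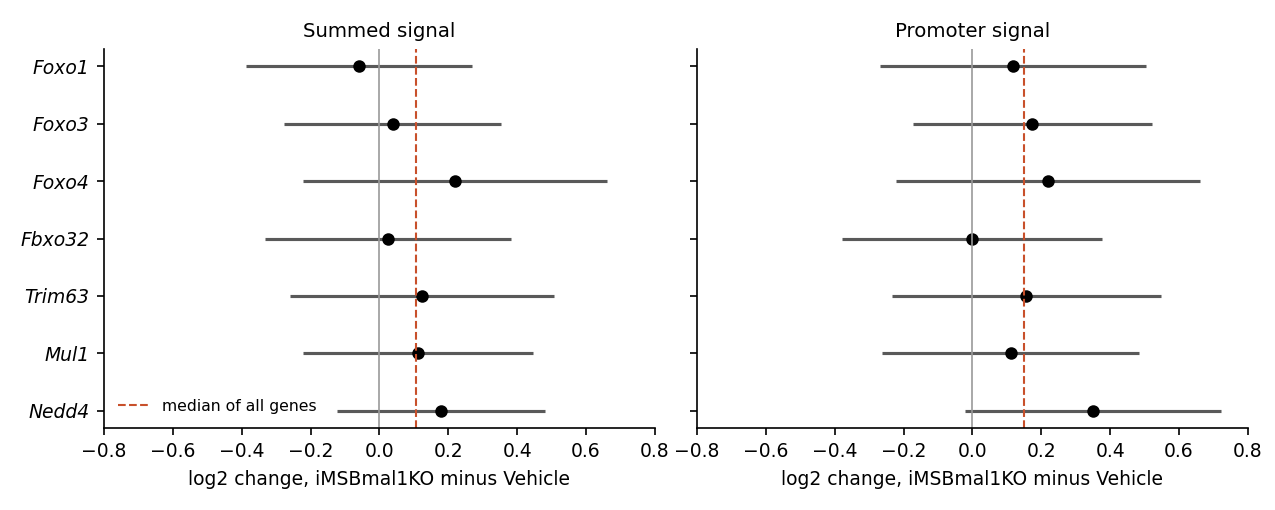
Log2 change in summed (left) and promoter (right) signal of each gene, iMSBmal1KO minus Vehicle, with 95% intervals from limma-trend (n = 4 libraries a group) and dashed lines at the medians of all genes, 0.11 and 0.15. Every interval includes 0, and that of the Nedd4 promoter, from -0.02 to 0.72, reaches least below it.

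None of the 7 genes passed the test on summed signal, where 0.129% of 22396 genes did, or on promoter signal, where 0.0784% of 17847 did. The adjusted p-values were 0.658 to 0.968 and 0.507 to 0.997. Across the 7 genes the 95% intervals together ran from 0.765-fold to 1.58-fold for summed signal and from 0.769-fold to 1.65-fold for promoter signal, so changes beyond those folds lay outside every interval. Vehicle 4 was the lowest of all 8 libraries in the summed signal of 6 of the 7 genes. Without it the summed changes of Foxo3, Fbxo32 and Trim63 were -0.07, -0.11 and -0.07, those of Foxo1, Foxo4, Mul1 and Nedd4 were -0.10, 0.068, 0.056 and 0.051, and the median of all genes was 0.05.

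Fbxo30 had no region of its own name. An accessible region at chr10:11280622-11281425, annotated to the neighbouring gene 4930432B10Rik, spans a RefSeq start of Fbxo30, at position 11281330. This region lies outside the rule and was chosen after values were seen. Its signal was 1073, 1010, 738 and 666 in Vehicle and 958, 1160, 908 and 1019 in iMSBmal1KO. The groups overlapped, with a log2 change of 0.24 ± 0.19 (SE) and an adjusted p of 0.679 by limma-trend. Signal here cannot be divided between the 2 genes. The Fbxo30 stretch searched for motifs, chr10:11281337-11281636, was set around a later start. Only 88 of its 300 bases lay in an accessible region.

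By section of the gene, the 29 tested regions labelled as transcription starts had a median log2 change of 0.17, the same as the 0.17 of all 31331 tested start regions. The 69 intronic regions had a median of -0.0038 against 0.10, the 19 in 5′ UTR exons -0.08 against 0.08, the 12 in 3′ UTR exons -0.11 against 0.10, the 4 in coding exons -0.23 against 0.06 and the 12 at transcript ends 0.11 against 0.06. Start regions were thus as high as starts elsewhere, while intronic and most exonic member regions had lower medians than their sections did overall. Regions of a gene share libraries and 149 of the 343 (43.4%) abut another, so these medians are a description. The start regions were also the densest, at a median of 340 signal per kb against 236 for all start regions, and intronic member regions had 170 against 138.

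**Figure D5:**
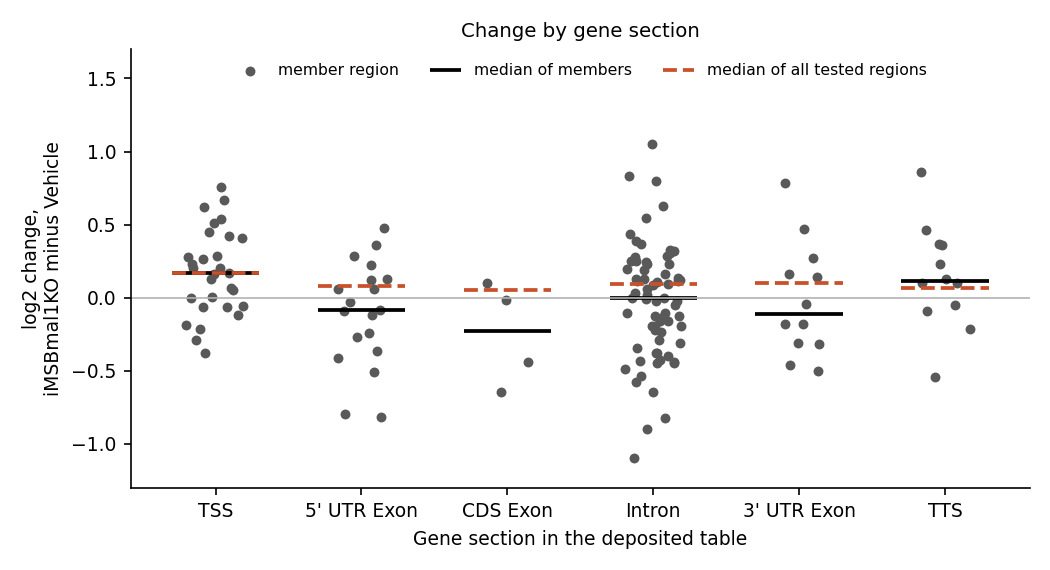
Log2 change (iMSBmal1KO minus Vehicle) of each tested region of the 7 genes by section of the gene in the deposited table, with the median of these regions (black line) and of all tested regions of that section (dashed line). The lines coincide at 0.17 for start regions (TSS) and part for introns, -0.0038 against 0.10.

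Other genes of the pathway were taken in 3 lists. Of 14 further ubiquitin ligases linked to atrophy or the sarcomere, among them Traf6, Trim32 and Cblb, 190 regions were tested and 0 passed. At an unadjusted p under 0.05 by limma-trend there were 11 higher and 6 lower, 8.95% of those tested and near the 9.22% of all regions, and the median log2 change was 0.10. The regions with the smallest p were in intron 4 of Fbxo21, an F-box ligase gene, and in a 5′ UTR exon of Fbxo40, which encodes a muscle F-box protein that acts on insulin receptor substrate. The Fbxo21 region, chr5:117988081-117988234, had 43.7, 52.4, 101 and 46.9 in Vehicle and 12.4, 38.5, 22.7 and 22.6 in iMSBmal1KO, a log2 change of -1.33 ± 0.34 (SE) with an adjusted p of 0.218. Its groups did not overlap. The Fbxo40 region, chr16:36982582-36982673, had 32.0, 13.4, 29.2 and 18.8 and then 35.0, 53.5, 57.3 and 43.9, a log2 change of 1.05 ± 0.31 (SE) with an adjusted p of 0.342, also without overlap. Both were picked by their p, and groups without overlap occurred in 5.49% of all tested regions.

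A list of 21 genes, called FOXO targets below, held genes that FOXO factors are known to act on in autophagy, stress and metabolism. It also held Foxo6, itself a FOXO factor gene. In this list 180 regions were tested and 0 passed, with 6 higher and 2 lower at an unadjusted p under 0.05 by limma-trend. That was 4.44% against 9.22%, and the median was 0.09. The smallest p-values were at Sesn1, which encodes a sestrin that restrains mTORC1, and Psme4, which encodes a proteasome activator. The Sesn1 region had 25.7 ± 9.55 in Vehicle and 48.7 ± 14.4 in iMSBmal1KO, and the Psme4 region 34.2 ± 19.8 and 61.0 ± 9.12 (SD, n = 4), with adjusted p-values of 0.441 and 0.466. For 16 genes of kinases, deacetylases and cofactors that modify FOXO proteins, 174 regions of 15 genes were tested and 0 passed, with 12 higher and 3 lower, 8.62% against 9.22%, and a median of 0.11. Among the smallest p-values there was a region of Prkaa2, the catalytic subunit of AMPK most abundant in muscle. It had 16.6 ± 5.44 in Vehicle and 5.25 ± 2.53 in iMSBmal1KO (SD, n = 4), with an adjusted p of 0.396 by limma-trend. Its groups did not overlap, but it held enough reads for testing in the Vehicle libraries alone, where it was higher. The medians over regions lay below the 0.12 of all tested regions in each list. Over genes, no gene of the 3 lists passed on summed or promoter signal. The medians of summed change were 0.15 for the ligases, 0.07 for the FOXO targets and 0.10 for the enzymes and cofactors against 0.11 for all genes, and those of promoter change were 0.19, 0.09 and 0.16 against 0.15.

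Markers of the cells that the homogenate could hold were compared by promoter signal summed over each list. The 8 muscle fibre genes had 9146 to 15681 in Vehicle and 12515 to 14608 in iMSBmal1KO and all 8 had an accessible promoter region. The 4 of 5 slow fibre genes with such a region had 294 to 386 and 322 to 448. Genes that rise on denervation had 2016 to 2482 and 2118 to 2511, and 4 of 5 satellite cell markers had 441 to 558 and 420 to 508. Lists for fibro-adipogenic, endothelial and smooth muscle cells had 378 to 574, 100.4 to 134 and 125 to 160 in Vehicle and 430 to 600.4, 107 to 155 and 140 to 155 in iMSBmal1KO. Of 4 adipocyte genes 1 had a promoter region, with 9.25 to 19.7 and 10.7 to 15.5. Macrophage markers were near 0, with 3.13 to 7.46 and 5.14 to 12.5, from 2 of 5 genes, since Adgre1, Cd68 and Mrc1 had no region within 1000 bp of a start. The ranges of the groups overlapped in all 9 lists, and no marker gene passed the test on promoter signal.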

How the data were processed

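The authors deposited 1 table that gives each region's signal in 8 libraries. Column names tied each of the 8 to 1 sample. The submitters' processing notes name Partek, Bowtie2, MACS2 and DESeq2 without their roles, and the builds mm10 and GRCm39. The table names no build. Positions are given as it lists them, starts counted from 1 and each end 1 past the last base, and starts of the 7 genes lay 0 to 306 bp from those of RefSeq assembly GRCm38.p6. Whether duplicates were removed or reads shifted for the transposase is not given in the sources used here, and both would change the signal.

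In each library 98.8% to 99.8% of low values were whole multiples of 1 step, within 0.02 reads, so dividing by the step gave read equivalents. Recovery was not complete, and no count model was used.

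A region was tested if 0.762 read equivalents per M were met in 4 or more libraries and its total was 15 or more, which 124912 regions fulfilled. The test was limma-trend (limma 3.58.1, R 4.3.3) of the group difference in log2(signal + 1) over the 8 libraries, without covariates and with the robust option. Benjamini-Hochberg adjustment covered every tested region, and calls needed an adjusted p under 0.05. Signal summed per gene, over all its regions or over those within 1000 bp of an annotated start, was tested in the same way over all genes with a signal of at least 10 in at least 4 libraries, beside an exact two-sided permutation test. The labels do not say that libraries of a group came from separate mice, so p-values measure the spread between these libraries. Motifs were searched with Python 3.11.15.

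The member genes and the gene lists were chosen with earlier results of these data known. Named were, of each gene, the region with the most signal and the one with the smallest p, and of each list the 2 regions with the smallest p. Of these, 1 list region is not reported here. The other regions named, including the strong ones inside Foxo3 and Fbxo32, were chosen after values were seen.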

Additional observations from a re-analysis of the deposited data

Results flagged for a closer look

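Among 48 sets of 4 libraries examined, 1 for each group and each gene or named region, 2 held a library far from the other 3, where chance gives about 2.4. The measure is the gap of the highest or lowest library to its neighbour as a share of the whole range, with a limit of 0.829 for 4 libraries. In the promoter signal of Nedd4 this share was 0.846 in Vehicle, where Vehicle 4 had 438 and the other 3 had 656 to 695. In the Foxo3 region starting at position 42230635 it was 0.930 in Vehicle, where Vehicle 3 had 18.4 and the other 3 had 30.9 to 31.9.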

How the results depend on the processing

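No member region was called under any of the 21 alternatives, and the smallest adjusted p by limma-trend over 454 alternative values of the genes and named regions was 0.226, for the promoter of Nedd4 without Vehicle 2. No alternative was added after seeing the data. The planned edgeR test was not run, because reads were not recovered for all values. Directions near 0 were not stable, and the causes were not tested. With total reads the summed changes of Foxo3 and Fbxo32 became -0.014 and -0.027. With loess scaling the summed changes became -0.0010 for Fbxo32 and -0.058 for Mul1, the promoter changes -0.10 for Foxo1, -0.0068 for Trim63 and -0.12 for Mul1, and the changes of the Mul1 region starting at 138434539 and the Nedd4 region starting at 72696624 became -0.022 and -0.081. With median-of-ratios and trimmed-mean factors the Fbxo32 promoter, and the region starting at 58214650 that makes it up, had 0.019 and 0.026. Leaving out 1 library at a time, summed changes ran from -0.14 to 0.041 for Foxo1, -0.069 to 0.12 for Foxo3, -0.11 to 0.16 for Fbxo32 and -0.069 to 0.26 for Trim63. Promoter changes ran from -0.0049 to 0.23 for Foxo1, -0.10 to 0.16 for Fbxo32 and its region, and -0.024 to 0.27 for Trim63. The Trim63 region starting at 134314965 ran from -0.17 to 0.0066 and the Nedd4 region starting at 72696624 from -0.040 to 0.16. With 1 library left out, the other summed changes kept their sign. They ran from 0.068 to 0.38 for Foxo4, 0.052 to 0.18 for Mul1 and 0.051 to 0.25 for Nedd4. The Nedd4 promoter ran from 0.19 without Vehicle 4 to 0.42, and with loess scaling of all 8 libraries it had 0.20.

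Over all regions the number called was 110, with 39 higher. It was 342 with loess, 195 without the filter, 36 and 175 at thresholds of 0.01 and 0.1, and 32 to 281 with 1 library left out. Genes called on summed signal were 29, 65 with loess, and 7 to 107 with 1 library left out. On promoter signal they were 14, 35 with loess, 23 with total reads, 24 in the wider window tried, and 7 to 265 with 1 library left out. Both highest counts were without Vehicle 2.

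Whether replicate numbers pair the libraries was not settled. Same-numbered libraries correlated at only -0.06 to 0.14 in their deviations from the group means. In these deviations 0 of 4 Vehicle and 1 of 4 iMSBmal1KO libraries correlated best with their own number. With the replicate number as a block 0 member regions were called, with 100 of all regions. Calls over all genes rose, however, from 29 to 116 on summed and from 14 to 117 on promoter signal. The adjusted p of the Nedd4 promoter was 0.272 with the block by limma-trend. Named regions held as few as 1 read in a library, in intron 1 of Foxo1, and 5 at the second start of Nedd4, which limits what single regions can show.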
